A study of Mus musculus with 24 samples.

Results

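White adipose tissue of hPER1 S714G mice taken at ZT13 (3 arrays) was set against white adipose tissue of hPER1 S714 control mice taken at ZT1 (3 arrays), with expression of all genes as the readout. These are 6 of the 24 arrays of a series that also covers liver and the other pairings of genotype and time. Both groups were male mice on a C57BL/6 background, 2 months old, and both carried human PER1, with a serine changed to glycine in the S714G mice and with the unchanged serine, S714, in the controls. All had spent 10 days in light-dark cycles, and ZT counts hours from lights on. How the human gene was introduced, what drives it and whether mouse Per1 was kept are not given in the sources used here. Genotype, time of day and array slide all differ between the groups: the 3 S714G ZT13 arrays lay on slide 3 and the 3 control ZT1 arrays on slide 1, so that their parts in any difference cannot be told apart. The labels name the arrays of a group as independent repeats without tying them to animals, and p-values measure the spread between these arrays.

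The circadian clock of mammalian cells is a feedback loop. BMAL1 (gene Arntl) with CLOCK or NPAS2 switches on Per, Cry, Nr1d and PAR bZIP genes through E-box sequences, the PER and CRY proteins then repress that activity, and the nuclear receptors NR1D1 and NR1D2 repress Arntl. In white fat the loop runs alongside daily rhythms of lipid storage and release. The changed serine of PER1 is the counterpart of a PER2 residue that is changed in an inherited form of advanced sleep phase.

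Levels below are log2 signals relative to the array's own 75th percentile, and a difference is S714G ZT13 minus control ZT1. On the S714G ZT13 arrays 62.8% to 66.2% of spots were well above background, against 52% to 71.2% on the control ZT1 arrays. Across genes, the S714G ZT13 arrays correlated with each other at 0.988 to 0.991 and the control ZT1 arrays at 0.958 to 0.966. Control ZT1 replicate 1 lay nearer to the other group than its fellow controls did: it correlated at 0.9615 to 0.9675 with the S714G ZT13 arrays, where replicates 2 and 3 reached 0.9174 to 0.9298. The defining white adipocyte markers were present on every array. Adipoq, the adiponectin gene, was at 7.21, 6.97 and 7.53 in S714G ZT13 and at 7.14, 7.56 and 7.20 in control ZT1, and Plin1, which coats lipid droplets, was at 5.79, 5.52 and 5.71 against 5.73, 5.82 and 5.77. Both ranges overlapped (adjusted p = 0.872 and 0.786, limma). Of the 12 white adipocyte markers listed, Lipe (1.071) and Cd36 (1.075) were higher at an adjusted p under 0.05. That is 16.7%, beside 13.3% of all genes. The list median was -0.06, and 7 of the 12 had a negative difference, the lowest that of Car3 (-0.86).

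In the fit over all 12 adipose arrays, 3115 of 23384 genes had an adjusted p under 0.05 (limma, Benjamini-Hochberg), 13.3% of those tested, with 1376 higher in S714G ZT13 (5.88%) and 1739 lower (7.44%). At 52.3% of all genes the 3 values of one group lay outside the range of the other 3, so a lack of overlap is common here. The median difference over all genes was -0.18, and +0.28 where each array was scaled to its median instead, which turned the split to 3650 higher and 723 lower. Quantile normalization gave a median of -0.03 with 1818 higher and 1055 lower, and normexp background correction 1406 higher and 2456 lower. With slide as a fixed block over all 24 arrays, which borrows the slide step from the other groups, 4 of 23321 genes passed (0.0172%), and 1849 had an unadjusted p under 0.05. Only groups that span slides set that step. In S714G ZT1 adipose tissue replicate 3 lay on slide 2 and replicates 1 and 2 on slide 1. In control ZT13 liver replicate 1 lay on slide 2 and replicates 2 and 3 on slide 3. The step is thus imprecise, and the median SE was 0.607 with the block, against 0.314 in the 12-array fit. With slide as a random block none passed, and 902 had an unadjusted p under 0.05. The count also moved when single arrays were left out. It was 68 without S714G ZT13 replicate 1, 164 without its replicate 2 and 139 without its replicate 3. Without control ZT1 replicates 1, 2 and 3 it was 2829, 405 and 335. In these fits 5826 to 8691 genes had an unadjusted p under 0.05 (limma), against 8376 with all 12 arrays. The median SE was 0.338 to 0.37, against 0.314. Among 87 named genes that passed, 9 passed in every fit without 1 array: Per2, Slc2a3, Retnlg, C1qa, C1qb, Cd68, Siglecf, S100a9 and Ccl2. All 87 kept their direction in those fits. They were chosen for passing on these same arrays, so a turned direction was unlikely from the start.

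The Per genes and Bhlhe40, repressors within the clock loop, were higher in S714G adipose tissue at ZT13 than in control tissue at ZT1. Of 12 clock genes that peak in the day or evening, 6 were higher, 1 was lower and 5 did not pass, with a median difference of 1.08 beside -0.18 for all genes. The share called was 58.3%, beside 13.3% of all genes. The number higher was 3 without control ZT1 replicate 2, 1, 1 and 2 without S714G ZT13 replicates 1, 2 and 3, and none with slide as a fixed or random block, where the fixed block left the median at 1.13. Per2, a repressor of BMAL1 and CLOCK (probe on chromosome 1, 93313046 to 93313105, build mm9), was at -0.03, 0.52 and 0.97 in S714G ZT13 and at -2.38, -3.09 and -2.69 in control ZT1. The groups did not overlap, and the level was 9.23-fold higher (log2 3.21 ± 0.321 SE, adjusted p = 0.00315, limma). Per1, its paralogue (chromosome 11, 68923364 to 68923423), was at 1.31, 2.05 and 1.36 against -0.30, -0.23 and 0.13, a 3.27-fold difference (adjusted p = 0.0124). A dimmer Per1 probe (chromosome 11, 68919895 to 68919954) was at -1.05 and did not pass, with 2 of 3 arrays of each group above background. Whether either probe also binds the transcript of human PER1 was not tested. Per3, a further member of the family, was at -3.70, -3.99 and -3.65 against -4.75, -6.17 and -6.48, where 1 of 3 control arrays was above background (log2 difference 2.02, adjusted p = 0.0318).

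Other evening genes rose as well. Bhlhe40, a basic helix-loop-helix repressor that competes for E-boxes (chromosome 6, 108616309 to 108616368), was at 1.58, 2.05 and 1.69 in S714G ZT13 and at -0.05, -1.62 and -2.41 in control ZT1. All 3 mutant values were above the control values, although control replicate 1 lay much nearer to them than the other controls, and the difference was 3.13 ± 0.624 (SE, adjusted p = 0.0199, limma). Tef, a PAR bZIP activator of D-box genes, was at 2.86, 3.18 and 3.2 against 1.20, 1.90 and 1.99, and Usp2, a deubiquitinase, at 1.0, 1.51 and 1.59 against -0.26, -0.31 and 0.28. Their differences were 1.38 (adjusted p = 0.0148) and 1.46 (adjusted p = 0.0192). Dbp, the best known PAR bZIP output of the clock, was at 3.56, 3.28 and 3.71 against 2.58, 3.73 and 3.19, and these ranges overlapped (adjusted p = 0.465). Hlf, another PAR bZIP gene, was at 0.78 (adjusted p = 0.134), Bhlhe41 at -0.39 (adjusted p = 0.403) and Ciart, not above background on any of the 6 arrays, is given no fold.

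Nr1d1, the REV-ERB alpha repressor of Arntl (chromosome 11, 98630526 to 98631028), moved the other way. It was at -2.44, -2.42 and -2.22 in S714G ZT13 and at -1.36, -0.74 and -1.10 in control ZT1, without overlap, and fell by 1.29 ± 0.298 on the log2 scale (SE, adjusted p = 0.0258, limma), a call that ended under median scaling (-0.83, adjusted p = 0.0979). Its relative Nr1d2 gave no single direction. The brightest probe, which the array design places on chromosome 19 (40271435 to 40271494) although the gene lies on chromosome 14, was at -0.61 (adjusted p = 0.155). The probe on chromosome 14 (19037253 to 19037312) was at 2.22 with an adjusted p of 0.0323 in a fit over all probes, with 1 of 3 control arrays above background.

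**Figure D1:**
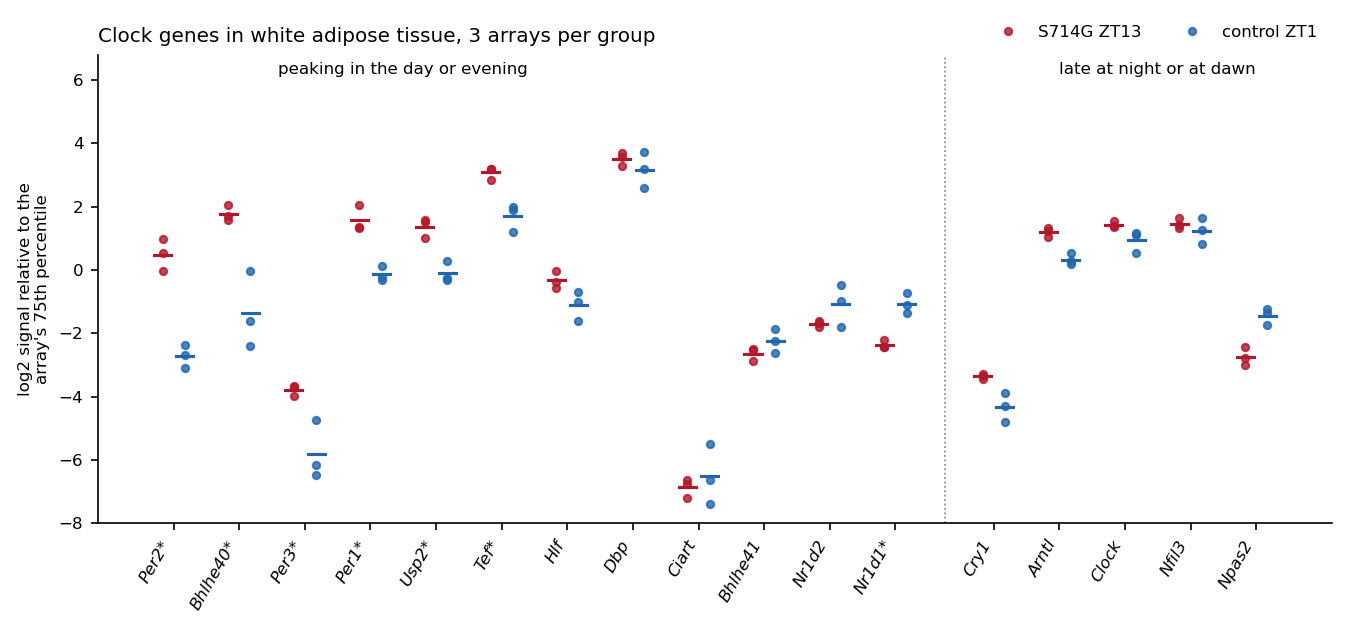
Log2 signal of 17 clock genes on each of the 3 S714G ZT13 arrays (red, left) and 3 control ZT1 arrays (blue, right), with bars at the group means and an asterisk where the adjusted p is under 0.05. Per2 and Bhlhe40 show the widest gaps, at 3.21 and 3.13, Nr1d1 lies lower in S714G ZT13, and no gene on the right side, the group peaking late at night or at dawn, carries an asterisk.

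None of the 6 clock genes that peak late at night or at dawn passed (limma), with a median difference of 0.43, and 2 were called higher under median scaling. By unadjusted p under 0.05, 2 of them did: Arntl, the BMAL1 gene (chromosome 7, 120457261 to 120457320), was at 1.32, 1.24 and 1.03 against 0.53, 0.17 and 0.27 (unadjusted p = 0.019, adjusted p = 0.0824), and Npas2, a partner of BMAL1, at -2.78, -2.43 and -3.0 against -1.37, -1.73 and -1.24 (unadjusted p = 0.0414, adjusted p = 0.125). Neither pair of groups overlapped, with Arntl above and Npas2 below the controls. Clock (0.50), Cry1 (0.96) and Nfil3 (0.23) had adjusted p of 0.147, 0.179 and 0.719. Of 9 other clock components 1 passed: Fbxl21, an F-box protein that acts on CRY, was 2.53-fold higher (adjusted p = 0.0481) with 1 of 3 control arrays above background. The rest, among them Cry2, Rora, Csnk1d and Csnk1e, lay between -0.83 and 0.55, and the median of the 9 was -0.43, or 0.04 under median scaling.

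The levels of the remaining adipose groups place these 2 groups, although slide also changes across the 4. Control ZT13 lay on slide 2, and S714G ZT1 on slide 1 but for replicate 3 on slide 2. Arntl averaged 1.19 in S714G ZT13 and 0.32 in control ZT1, against -1.86 in S714G ZT1 and -4.33 in control ZT13. Npas2 averaged -2.74 and -1.45, against -4.34 and -5.90. Dbp averaged 3.52 and 3.17, against 5.67 and 5.42. For these 3 genes S714G ZT13 and control ZT1 stood next to each other at one end of the order, and their arrays overlapped for Dbp alone. Per2 had another order, with 0.49 in S714G ZT13 and -2.72 in control ZT1, against -0.68 in S714G ZT1 and 1.62 in control ZT13, and Nr1d1 averaged -2.36 in S714G ZT13, lower than the other 3 groups (-1.07, 0.55 and -0.76). These comparisons share arrays and one fit, in which 10 genes passed for S714G against control at ZT13 (0.0428%), 0 at ZT1, 443 for ZT13 against ZT1 in S714G (1.89%) and 3501 in controls (15%).

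**Figure D2:**
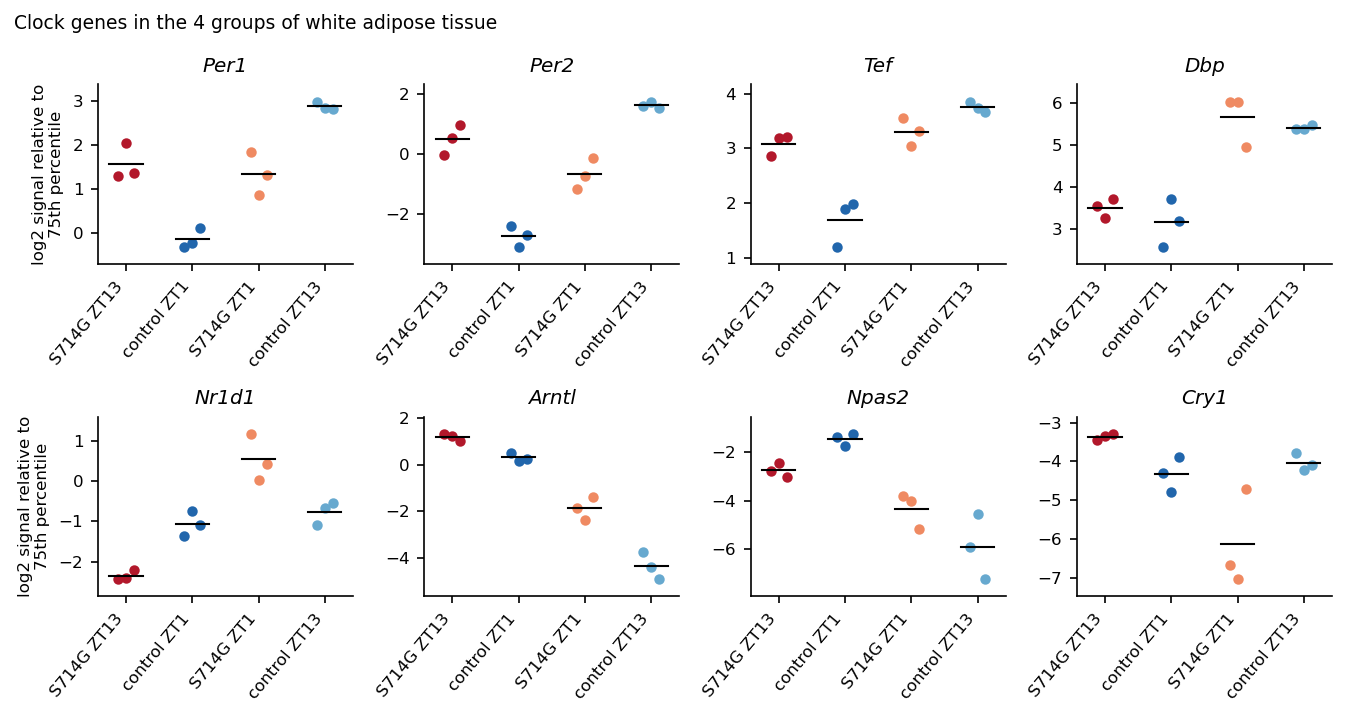
Log2 signal of 8 clock genes on every array of the 4 adipose groups, with bars at the group means. For Arntl, Npas2 and Dbp the S714G ZT13 and control ZT1 arrays lie next to each other and apart from the other groups, while Per1, Per2 and Tef are lowest in control ZT1 and Nr1d1 is lowest in S714G ZT13.

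E-boxes are where BMAL1 and its partners bind, and the promoters shown are those of the 4 clock genes with the lowest p among those that passed and had an entry. Each stretch runs from 250 bases before to 50 bases after the gene start (RefSeq, build GRCm38.p6): Per1 chr11:69098699-69098998 (+ strand, the first of 2 listed starts), Tef chr15:81802423-81802722 (+ strand, the first of 2), Nr1d1 chr11:98775328-98775627 (- strand) and Usp2 chr9:44084670-44084969 (+ strand). Capitals mark an E-box (CACGTG) or an E-prime box (CACGTT or its reverse complement AACGTG), and both strands were searched.
Per1: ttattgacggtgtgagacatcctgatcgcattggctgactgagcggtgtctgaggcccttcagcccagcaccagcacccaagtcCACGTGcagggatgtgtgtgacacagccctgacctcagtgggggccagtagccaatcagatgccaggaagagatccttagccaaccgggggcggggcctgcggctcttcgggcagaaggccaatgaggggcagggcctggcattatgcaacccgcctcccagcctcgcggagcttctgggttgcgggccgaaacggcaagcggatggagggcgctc
Tef: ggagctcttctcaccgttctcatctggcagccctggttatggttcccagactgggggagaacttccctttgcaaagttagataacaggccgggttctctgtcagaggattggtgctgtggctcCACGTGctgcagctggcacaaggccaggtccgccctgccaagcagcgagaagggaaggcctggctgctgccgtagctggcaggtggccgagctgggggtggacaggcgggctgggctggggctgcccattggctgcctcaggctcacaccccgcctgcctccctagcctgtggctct
Nr1d1: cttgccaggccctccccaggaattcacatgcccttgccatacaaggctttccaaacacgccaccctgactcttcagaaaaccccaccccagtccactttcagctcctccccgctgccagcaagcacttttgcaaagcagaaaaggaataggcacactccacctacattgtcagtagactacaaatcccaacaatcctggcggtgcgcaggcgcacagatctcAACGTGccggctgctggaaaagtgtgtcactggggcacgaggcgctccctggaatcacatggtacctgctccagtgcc
Usp2: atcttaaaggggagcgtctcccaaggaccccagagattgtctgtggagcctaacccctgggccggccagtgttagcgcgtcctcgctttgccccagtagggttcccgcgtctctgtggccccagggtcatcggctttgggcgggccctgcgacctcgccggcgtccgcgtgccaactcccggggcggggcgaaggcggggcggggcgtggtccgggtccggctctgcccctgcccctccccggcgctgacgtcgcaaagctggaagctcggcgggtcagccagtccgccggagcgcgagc
Per1 and Tef, both higher in S714G ZT13, each hold 1 E-box, at -166 and -127 from the start. Nr1d1, which was lower, holds 1 E-prime box at -28, and Usp2, which was higher, holds neither motif in this window. Of 32851 listed promoters 7.15% hold CACGTG and 4.68% CACGTT. The D-box TTANGTAA, bound by PAR bZIP factors and found in 2.32% of promoters, is in none of these 4 windows. Per2 and Bhlhe40 were not among the entries used, and Per3 and Fbxl21, which passed with higher p, are not shown.

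Most macrophage markers were lower in S714G adipose tissue at ZT13. Of 16 measured markers 11 were lower in S714G ZT13, none was higher and 5 did not pass, with a median difference of -1.18 beside -0.18 for all genes. The share lower was 68.8%, beside 7.44% of all genes. The number lower was 9 under quantile normalization and 6 under median scaling, and none passed (limma) with a fixed or random slide block, where the fixed block gave a median of -1.19. Leaving out control ZT1 replicate 2 gave 5, leaving out control ZT1 replicate 3 gave 3, and leaving out S714G ZT13 replicate 1, 2 or 3 gave 3, 4 or 3. C1qb, a chain of complement C1q made by tissue macrophages, was at 2.46, 2.76 and 2.34 in S714G ZT13 and at 5.10, 5.35 and 5.17 in control ZT1. The gap between the groups was many times the spread within them (log2 difference -2.68 ± 0.265 SE, adjusted p = 0.00315, limma). C1qa, another chain, was at 2.35, 2.69 and 2.19 against 4.70, 4.93 and 4.46 (adjusted p = 0.00566), and Cd68, a lysosomal protein of phagocytes, at 2.32, 2.52 and 1.66 against 4.06, 4.24 and 4.52 (adjusted p = 0.00887). A second, dimmer Cd68 probe had a difference of -0.80 and did not pass. Cd163, the haemoglobin scavenger receptor of resident macrophages, was at -3.35, -2.94 and -4.46 against -1.12, -1.63 and -0.81 (adjusted p = 0.0133). The other 7 that fell ranged from -0.94 to -2.98. Among those that did not pass, Itgax, an integrin of inflammatory macrophages and dendritic cells, was at 0.10, the 1 marker with a positive difference.

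The mean level of the 16 markers was 1.09, 1.36 and 0.95 on the S714G ZT13 arrays, all below the 2.37, 2.58 and 2.50 of the control ZT1 arrays. It was 2.93, 2.57 and 2.44 in S714G ZT1, of which replicate 3 lay on slide 2 and not on slide 1, and 1.67, 1.98 and 1.62 in control ZT13. Both ZT13 groups were thus lower than both ZT1 groups. The control ZT13 arrays all lay on slide 2 and the S714G ZT13 arrays on slide 3, so slide largely changed along with time. In bulk tissue, fewer cells of a type and less RNA per cell cannot be told apart, here and in the lists that follow.

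Some genes of other leukocytes were lower too, most often T-cell markers. Retnlg, a resistin-like gene of neutrophils (chromosome 16, 48874468 to 48874527), was at -4.22, -4.53 and -4.78 in S714G ZT13 and at -0.33, -0.08 and 0.40 in control ZT1. It fell by 4.51 ± 0.321 (log2, SE, adjusted p = 0.000339, limma), the lowest p of the named genes, and was the 1 named gene to pass with the fixed slide block (-5.20). S100a9, a calcium-binding protein of neutrophils and monocytes, was at -3.83, -2.89 and -2.88 against -1.09, -1.15 and -0.46 (adjusted p = 0.00659). These were 2 of 8 neutrophil markers (25%, beside 13.3% of all genes called), with a list median of -0.64. T-cell markers fell in 5 of 9 (55.6%, median -1.54), in 3 under median scaling or quantile normalization, in 1 with the replicate block and in none (limma) with either slide block. Among them were Zap70, a kinase of the T-cell receptor (-2.01, adjusted p = 0.0215), and Cd2, an adhesion receptor (-1.77, adjusted p = 0.0247). Siglecf, a sialic acid receptor of eosinophils, was the 1 of 7 mast cell and eosinophil markers to pass, at -3.84, -4.90 and -5.13 against -1.16, -1.77 and -2.08 (adjusted p = 0.00575), and the B-cell gene Ms4a1 the 1 of 9 in its list (-2.12, adjusted p = 0.0212). These shares, 14.3% and 11.1%, were near the 13.3% of all genes. Positive differences were found for 2 of the 7 mast cell and eosinophil markers. With the fixed slide block the 2 list medians were 0.10 and 0.38.

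Of 14 inflammatory genes 3 fell and 1 rose (28.6% called, beside 13.3% of all genes). Ccl2, the chemokine that draws monocytes, was at -0.10, -0.30 and -0.19 against 1.34, 1.08 and 1.54 (adjusted p = 0.00575), and Il1b, an inflammatory cytokine, was 6.24-fold lower (adjusted p = 0.0179). Ptx3, a pentraxin, was at -1.17 (adjusted p = 0.0489), and Serpina3n, a protease inhibitor of the acute phase, at 1.19 (adjusted p = 0.0314). Under median scaling the list gave 2 lower and 2 higher. Interferon-responsive genes gave 3 lower (Ifit2, Oas1a and Oasl1) and 1 higher (Gbp3) of 20 (20% called), with a median of -0.05, or 0.41 with 2 higher and none lower under median scaling, and with the fixed slide block Ifit2 was at 0.10 and Oasl1 at 0.41. Immediate early genes gave 2 lower of 17 (11.8%): Egr1, a zinc finger factor (-1.51), and Junb, an AP-1 subunit (-2.12), with adjusted p of 0.0337 and 0.0176, and 1 lower and 1 higher under median scaling.

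Among stromal lists, 3 of 12 fibroblast and preadipocyte markers fell, a split of 1 lower and 2 higher under median scaling, and 3 of 12 endothelial markers rose. Each share called was 25%, beside 13.3% of all genes. The list medians were -0.66 and 0.40, or -0.20 and 0.08 with the fixed slide block. Among the fibroblast and preadipocyte markers 4 had a positive difference, and among the endothelial markers 3 had a negative one. The endothelial count was 6 under median scaling, 1 with the replicate block and 0 with either slide block. Pi16, a marker of adventitial progenitors, was at 2.46, 3.15 and 3.1 against 4.44, 4.38 and 4.33 (adjusted p = 0.0179), and Lum, the proteoglycan lumican, was at -1.19 (adjusted p = 0.0234). Col14a1 was at -1.26 on its brightest probe and at 1.49 on another (adjusted p = 0.0418 and 0.0976). Esam, an endothelial adhesion molecule, was at 3.0, 3.08 and 3.25 against 2.19, 1.81 and 1.39 (adjusted p = 0.0179). Pecam1, the CD31 junction protein, and Tek, the angiopoietin receptor, were 1.28 and 1.48 higher (adjusted p = 0.0284 and 0.0238). With the fixed slide block Esam, Pecam1 and Tek were at 0.62, 0.44 and 0.04.

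**Figure D3:**
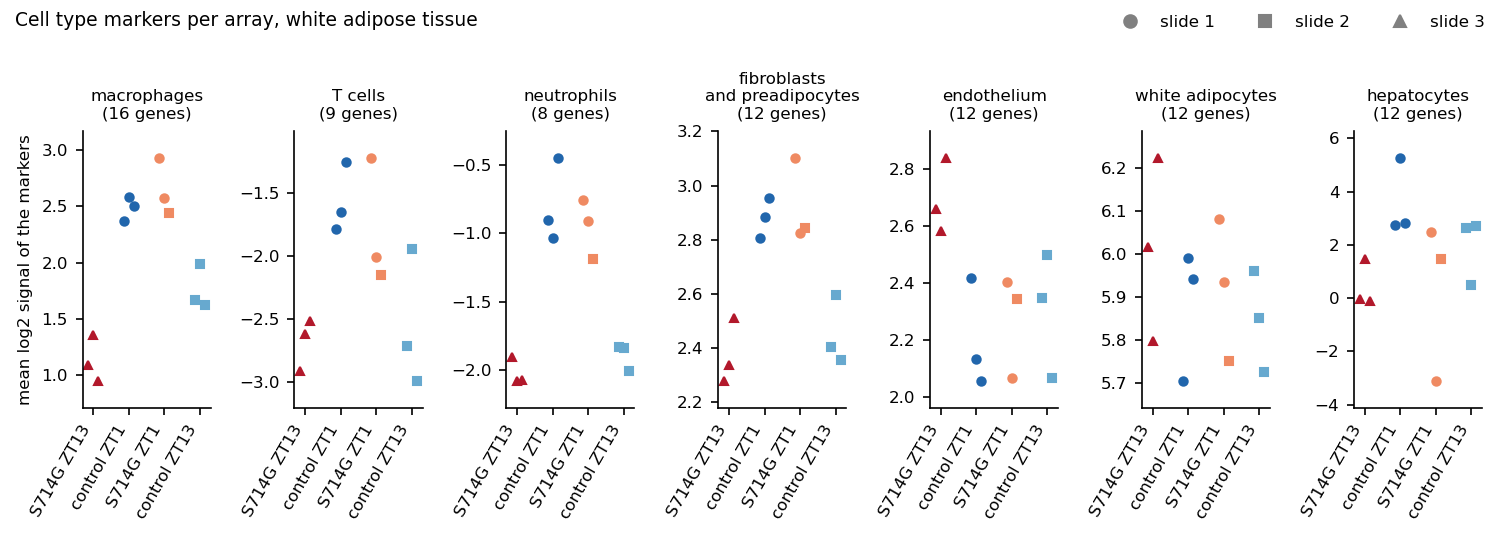
Mean log2 signal of 7 marker lists on each of the 12 adipose arrays, with colour for the group and symbol shape for the slide; each panel has its own vertical scale. The macrophage, neutrophil and fibroblast panels put the S714G ZT13 and control ZT13 arrays below the ZT1 arrays, the endothelial panel puts S714G ZT13 above control ZT1, and the white adipocyte panel spans less than 1 unit.

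In the lists of adipocyte metabolism the number of calls depended on the scaling. Of 17 genes of insulin action and glucose use 3 rose (median of the list 0.30), or 8 under median scaling. That share of 17.6% was near the 13.3% of all genes called. Pik3r1, the regulatory subunit of PI3-kinase, was at 1.62, 2.02 and 1.76 in S714G ZT13 and at -0.38, -1.03 and -0.71 in control ZT1 (adjusted p = 0.0217), Ppp1r3c, which targets a phosphatase to glycogen, was 3.17-fold higher (adjusted p = 0.0319) and Hk2, a hexokinase, 1.86-fold (adjusted p = 0.0354). Slc2a3, the glucose transporter GLUT3 (chromosome 6, 122678075 to 122678134), was at 1.39, 1.19 and 1.39 against -1.58, -1.54 and -1.51. The 2 groups were each within a narrow band, and the difference was 2.87 ± 0.236 (SE, adjusted p = 0.000811, limma) and 3.14 with the fixed slide block (adjusted p = 0.23). Of 16 lipolysis and lipid droplet genes 2 rose (12.5%), or 5 under median scaling: Lipe, the hormone-sensitive lipase, at 5.55, 5.43 and 5.58 against 4.33, 4.51 and 4.51 (adjusted p = 0.0227), and Hilpda, an inhibitor of adipose triglyceride lipase, 3.82-fold (adjusted p = 0.0198). Cd36, a fatty acid carrier, was 2.11-fold higher (adjusted p = 0.0251). Lipe was at 0.83, Cd36 at 0.11 and Hilpda at -0.060 with the fixed slide block.

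In fatty acid synthesis Lpin1, a phosphatidate phosphatase, was 0.90 higher (adjusted p = 0.0215) and Elovl6, an elongase, 1.38 lower (adjusted p = 0.0488), 1 each way of 23, against 4 higher and none lower under median scaling. The share called was 8.7%, beside 13.3% of all genes. In fatty acid oxidation Slc25a20, the carnitine carrier, and Hadhb, of the trifunctional protein, rose (1.78 and 0.88) and Acot1, an acyl-CoA thioesterase, fell (-1.97), of 18 (16.7%), against 5 higher and none lower under median scaling. Slc25a20 was at -0.44 and Hadhb at 0.38 with the fixed slide block. None of 11 adipokine genes, 21 cholesterol genes, 21 oxidative phosphorylation genes, 19 ribosomal protein genes or 17 proliferation genes passed (limma), and 2, 3, 3, 3 and 4 of them had an unadjusted p under 0.05. Lep, the leptin gene and 1 of the adipokines, was at 2.79, 3.06 and 3.08 against 2.29, 2.13 and 1.99 (adjusted p = 0.0727). Under median scaling 2 adipokine, 1 cholesterol, 2 ribosomal protein and 2 proliferation genes were called higher, and no oxidative phosphorylation gene. Gata2, a transcription factor that restrains adipogenesis, was the 1 of 15 adipogenic regulators to rise (6.67%), at 1.35, 0.97 and 1.0 against -0.52, -1.84 and -1.46 (adjusted p = 0.00948). The list gave 4 higher under median scaling and 2 under quantile normalization or normexp background correction. Elovl3 and Otop1, genes of brown and beige fat, fell by 3.16 and 1.73 (adjusted p = 0.0318 and 0.0242), 2 of 10 in that list (20%), or 1 lower and 1 higher under median scaling. Positive differences were found for 3 of these 10. The largest was that of Dio2 (1.89), which did not pass and was above background on 2 of 3 control ZT1 arrays.

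In the lists of protein folding and ribosome production the called genes were all higher, in shares near the 13.3% of all genes. Of 19 unfolded protein response genes 3 rose: Ddit3, the CHOP factor (1.20), Hsp90b1, an endoplasmic reticulum chaperone (1.73), and Herpud1, of its degradation machinery (1.42). With the fixed slide block Ddit3 was at 0.43, Hsp90b1 at -0.24 and Herpud1 at -0.19. Bag3 and Chordc1, co-chaperones, rose by 1.40 and 0.98, 2 of 16 heat shock and cold-inducible genes, and Nop58, Polr1a and Polr1b by 1.41, 0.80 and 1.55, 3 of 20 genes of ribosome production. On a dimmer probe Polr1b was at -1.17 and did not pass. The shares called were 15.8%, 12.5% and 15%, and under median scaling the 3 lists gave 5, 5 and 7 higher. Among 16 glucocorticoid-responsive genes 2 rose and 1, Tat, fell (18.8% called): Fkbp5, a glucocorticoid receptor co-chaperone, was 2.26-fold higher (adjusted p = 0.0154) and Sgk1, a serum- and glucocorticoid-induced kinase, 8.0-fold higher (adjusted p = 0.0249), at 1.49, 1.89 and 1.33 against -0.59, -1.81 and -1.89. With the fixed slide block Fkbp5 was at 1.23 and Sgk1 at 0.04. Of 16 circadian metabolic outputs 2 rose and 1, Acot1, fell (18.8%), against 8 higher and none lower under median scaling and no call (limma) with the replicate block or either slide block. Wee1, a kinase that delays mitosis, was 2.11-fold higher (adjusted p = 0.0287), and Lonrf3 2.23-fold (adjusted p = 0.0349). Among 20 matrix genes Col4a1, a collagen of basement membranes, rose by 1.03 and Mmp3, the protease stromelysin, fell by 1.48 (10% called).

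Among genes with an ordinary symbol, clone and locus names left out, the 12 largest positive differences without overlap between the groups were those of Trim67 (3.38), Gtf2h5 (3.24), Per2 (3.21), Bhlhe40 (3.13), Wbp2 (3.09), Sgk1 (3.0), Rbm8a (2.89), Slc2a3 (2.87), Chst14 (2.86), Rbm12b2 (2.82), Smad6 (2.80) and Mars2 (2.74). Trim67, of the tripartite motif family, was at 0.62, 0.45 and 0.93 in S714G ZT13 and at -1.95, -3.77 and -2.40 in control ZT1, with 2 of 3 control arrays above background (adjusted p = 0.0125). Chst14 and Mars2 were above background on 3 of 3 S714G ZT13 arrays and on 1 of 3 control ZT1 arrays, so the size of both differences rests partly on levels at background. Gtf2h5, a subunit of the repair and transcription factor TFIIH, was at 3.12, 3.13 and 3.32 against 1.12, 0.05 and -1.33, so that the spread lay in the controls (adjusted p = 0.0343). Rbm8a, of the exon junction complex, was at 3.79, 3.75 and 3.87 against 1.02, 1.0 and 0.72 (adjusted p = 0.02). With the fixed slide block Slc2a3 (3.14) and Per2 (1.95) stayed largest, while Gtf2h5 (-0.01), Sgk1 (0.04), Wbp2 (0.18), Rbm8a (0.24), Rbm12b2 (0.26) and Smad6 (0.30) were near 0 and Mars2 was at -1.13. Over 87 named genes that passed, 79 kept their direction in that fit, 50 kept over 50% of their size and 1, Retnlg, passed.

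**Figure D4:**
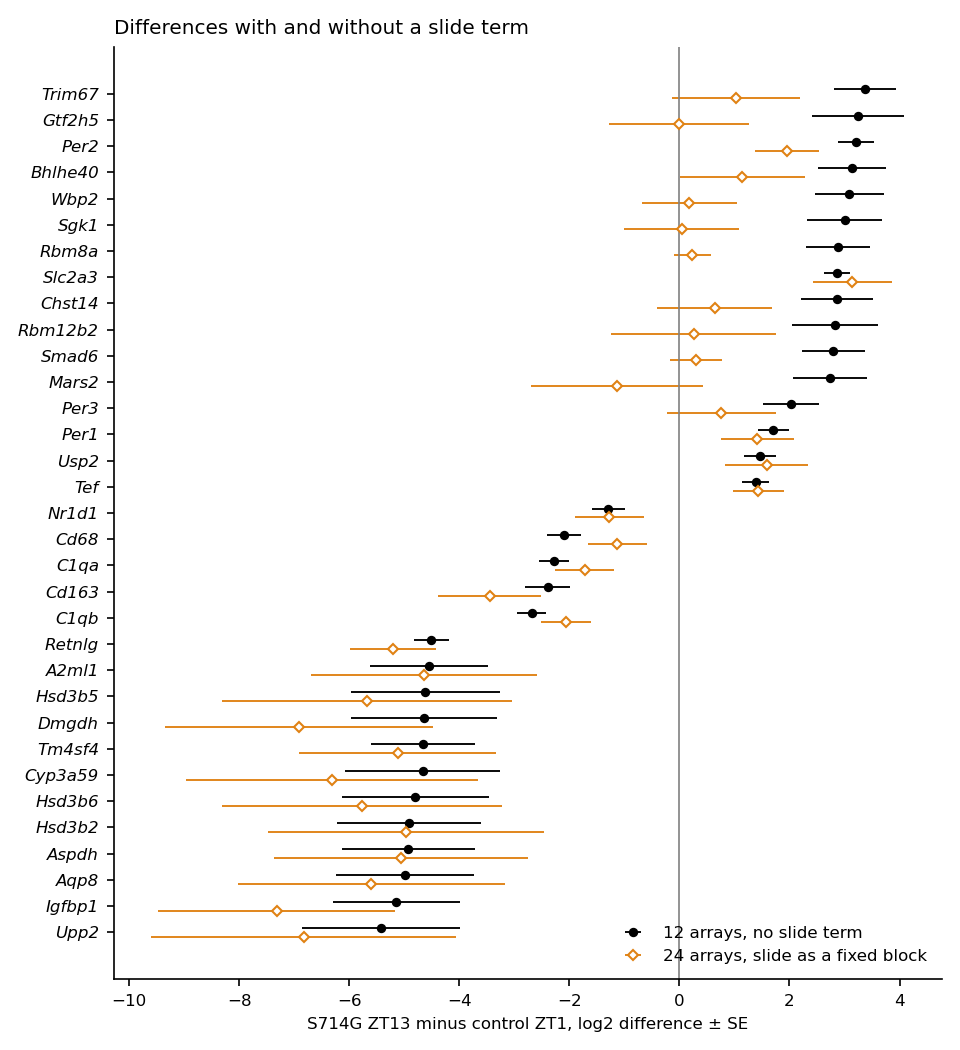
Log2 difference ± SE for the 24 genes with the largest differences, the clock genes of the day and evening that passed and 4 macrophage markers, from the 12 adipose arrays (filled) and with slide as a fixed block over 24 arrays (open). Slc2a3, Per1, Usp2, Tef, Nr1d1 and Retnlg keep a similar size in both fits, whereas Gtf2h5, Wbp2, Sgk1 and Rbm8a move to near 0.

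The 12 genes with the largest negative differences, chosen in the same way, were mostly genes of hepatocytes. Upp2, a uridine phosphorylase, was at -7.10, -5.00 and -7.59 in S714G ZT13 and at -2.68, 1.85 and -2.60 in control ZT1, and Igfbp1, a secreted IGF-binding protein, at -4.76, -4.71 and -4.89 against -0.82, 2.07 and -0.17. Control ZT1 replicate 2 was the highest array for both, and the differences were -5.42 and -5.15 (adjusted p = 0.036 and 0.0245). Hsd3b2, Hsd3b6 and A2ml1 were not above background on any S714G ZT13 array and were at least 11.3-fold, 13.5-fold and 16.6-fold lower. Aqp8, Aspdh, Cyp3a59, Tm4sf4, Dmgdh and Hsd3b5 ranged from -4.98 to -4.62. Upp2, Tm4sf4, Dmgdh and Hsd3b5 were above background on 1 of 3 S714G ZT13 arrays and Aspdh on 2, against 3 of 3 control ZT1 arrays, so the size of these differences rests partly on levels at background. Hsd3b2, Hsd3b5 and Hsd3b6 are close paralogues, and whether a probe of one also binds another was not tested. The remaining gene was Retnlg. Of the 12, 11 (all but Retnlg) had a higher level in liver than in adipose tissue of control ZT1 mice, by 4.69 to 5.85.

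Hepatocyte markers moved with these genes. The mean level of 12 such markers was -0.04, 1.49 and -0.12 on the S714G ZT13 arrays and 2.74, 5.27 and 2.83 on the control ZT1 arrays, with control ZT1 replicate 2 the highest, against -3.12 to 2.49 in S714G ZT1 and 0.50 to 2.72 in control ZT13. All 12 had a negative difference (median -3.06), and 2 passed (16.7%, beside 13.3% of all genes), Cps1 of the urea cycle (-4.39, adjusted p = 0.0372) and Tat, tyrosine aminotransferase (-4.04, adjusted p = 0.0332). Their part in the differences of the preceding genes was not tested. Without control ZT1 replicate 2 the differences of Upp2 and Igfbp1 were -3.92 and -4.29 (adjusted p = 0.0989 and 0.072). Clec4f, a receptor of liver macrophages in mice, had the largest fall in the macrophage list (-2.98) and the same high array, at -3.79, -2.53 and -2.88 against -1.29, 2.17 and -1.13. Acot1, at -1.55, -0.95 and -1.83 against -0.37, 1.95 and 0.0024, and Elovl3, at -5.12, -3.75 and -5.90 against -2.91, -0.06 and -2.33, also had their highest level on that array. Skeletal muscle markers gave 1 of 9 lower (Tnni2, -1.94), and markers of epididymis, testis, smooth muscle, mesothelium, erythroid cells and nerve gave none of 3, 4, 10, 11, 6 and 6.

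Liver offered the same contrast on the same 2 slides, so a slide step of equal size in both tissues cancels in the difference between tissues. That difference passed for 218 of 20885 genes (1.04%), 79 more positive and 139 more negative in adipose tissue. Single arrays moved this number, to 132 without control ZT1 adipose replicate 2, to 75 and 51 without S714G ZT13 adipose replicates 1 and 3, and to 136, 58 and 84 without S714G ZT13 liver replicates 1, 2 and 3. Among clock genes Per1 and Nr1d1 passed, 2 of 12 that peak in the day or evening, beside 1.04% of all genes. None of the 9 other clock components did. Per1 was 1.71 higher in adipose tissue and 3.73 higher in liver, a difference of -2.02 ± 0.388 (SE, adjusted p = 0.0163, limma). Nr1d1 was at -1.29 in adipose tissue and 0.37 in liver, a difference of -1.67 ± 0.364 (adjusted p = 0.0308). Per2 (3.21 and 3.18) and Bhlhe40 (3.13 and 3.04) had adjusted p of 0.99 for the difference, and of the 6 genes of late night or dawn none passed.

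The macrophage fall was larger in adipose tissue than in liver for 5 of 16 markers, with medians of -1.18 in adipose tissue and -0.40 in liver. Over all genes 139 of 20885 were more negative in adipose tissue, and the medians were -0.19 and -0.12. C1qb was at -2.68 in adipose tissue and -0.86 in liver (adjusted p of the difference = 0.00799), C1qa at -2.29 and -0.66 (adjusted p = 0.0314), Cd68 at -2.10 and -0.52 (adjusted p = 0.0334) and Cd163 at -2.40 and 0.28 (adjusted p = 0.0231). The fifth was Mrc1, the mannose receptor, named after its value was seen (-0.94 and 0.25, adjusted p = 0.0229). Retnlg was at -4.51 in adipose tissue and -1.43 in liver (adjusted p = 0.00322).

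Among genes with an ordinary symbol, the largest negative differences between tissues were those of Pax2 (-5.54), Tm4sf4 (-5.22), Nat8f5 (-4.22), F9 (-4.06), Csrp3 (-4.02) and Foxa2 (-3.79). Nat8f5, Csrp3 and Foxa2 were not above background on any S714G ZT13 adipose array and Tm4sf4 on 1 of 3, so their sizes and order rest on levels at background. Foxa2, a transcription factor of hepatocytes, was at least 6.83-fold lower in adipose tissue (adjusted p = 0.02, limma). F9, coagulation factor IX, was above background on all 3 arrays of both adipose groups, at -3.64 in adipose tissue and 0.42 in liver. Pax2 was at -2.29 in adipose tissue on its brightest probe, and at -1.01 and 0.28 on others. Most of its tissue difference thus came from a positive difference in liver. The largest positive differences between tissues among ordinary symbols were those of Myrip (2.75), Ybx2 (2.61), Slc2a13 (2.60), Meg3 (2.55), Hoxc9 (2.46) and Cacng7 (2.43). Dimmer probes of Ybx2 and Cacng7 were at -0.21 and -0.07 in adipose tissue, against 1.51 and 1.81 on the brightest. Myrip, a linker of vesicles to myosin, was 2.28 higher in adipose tissue and at -0.47 in liver, whereas Hoxc9, a homeobox gene, was at 0.50 in adipose tissue and -1.96 in liver. The call thus came from a higher adipose level for Myrip and mainly from a lower liver level for Hoxc9.

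**Figure D5:**
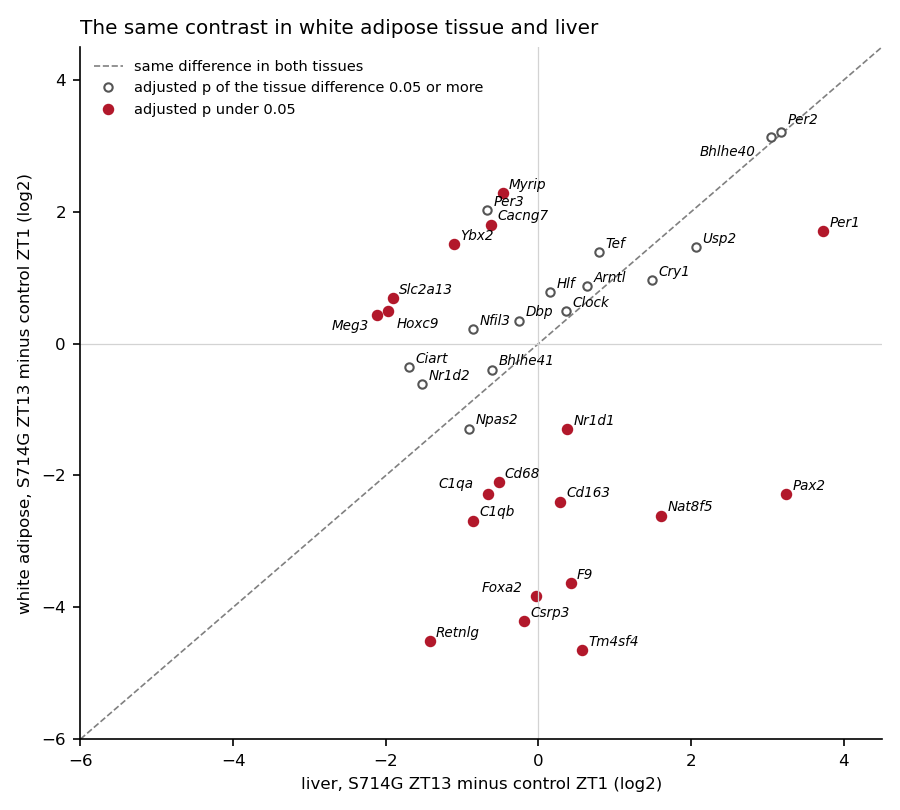
Log2 difference of S714G ZT13 minus control ZT1 in liver (horizontal) and white adipose tissue (vertical) for clock genes and genes named in the comparison of tissues; filled red points have an adjusted p under 0.05 for the difference between tissues, and the dashed line marks equal differences. Per2 and Bhlhe40 sit on the line at about 3 in both tissues, Per1 and Nr1d1 lie below it, and Retnlg, C1qa, C1qb and Cd68 lie well below it.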

How the data were processed

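RNA of 24 mouse tissue samples was hybridised singly to 1-colour Agilent arrays, and 6 of them form the comparison. The deposited scanner files hold intensity values from Agilent Feature Extraction 10.7.3.1 (array design 028005, probe positions in mm9), per the file headers; the processed signal in them is already background-corrected. The deposited table holds log2 of that signal minus each array's 75th percentile, with a shift of at most 0.0073 per array. Beyond that shift a rounded 100% of probes lay within 0.01, with direction and centring thereby known.

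That scaling was recomputed over 55681 probes after leaving out control spots and outlier flags. Probes well above background on all 3 arrays of an adipose group (33784) were kept, the brightest per gene (23384 genes). Probe names came from RefSeq accessions for 26769 probes, current symbols for 3817, synonyms for 638 and the files for 24457. Of 55 named genes with several probes, 21 had probes of opposite sign. limma 3.58.1 (R 4.3.3) fitted 4 group means over 12 adipose arrays (8 residual degrees of freedom), two-sided, with Benjamini-Hochberg adjustment and a threshold of 0.05. The difference between tissues was fitted over 24 arrays and 8 group means. The sample titles give adipose and liver arrays of a group the same replicate numbers. Whether arrays of the same number came from the same animal is not given, and this fit did not pair them. The number of arrays limits the precision. Folds given as "at least" take, for the dim group, the floor of the well measured probes on each array.

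Members and the 39 gene lists (538 of 542 genes on the array) were chosen with earlier results of these data known. Named genes were all clock genes, the 12 largest called differences per direction without overlap between the groups, up to 4 members of lowest p per list, the 6 largest called tissue differences per direction (both kinds among ordinary symbols, clone and locus names left out) and 5 adipocyte markers. Values of 1 clock gene are not reported here. The fit was tested on simulated data with independent arrays and no slide step, so that test does not bear on the part of slide. Alternatives covered background, scaling, probe filter, probes per gene, arrays in the fit, slide, replicate and left-out arrays.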

Additional observations from a re-analysis of the deposited data

Results flagged for a closer look

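The S714G ZT13 minus control ZT1 difference differed between white adipose tissue and liver, by limma's test of the difference itself, for 19 named genes. More negative in adipose tissue were Pax2 (-5.54), Tm4sf4 (-5.22), Nat8f5 (-4.22), F9 (-4.06), Csrp3 (-4.02), Foxa2 (-3.79), Retnlg (-3.08), Cd163 (-2.68), Per1 (-2.02), C1qb (-1.82), Nr1d1 (-1.67), C1qa (-1.63) and Cd68 (-1.58), given as adipose minus liver on the log2 scale. More positive were Myrip (2.75), Ybx2 (2.61), Slc2a13 (2.60), Meg3 (2.55), Hoxc9 (2.46) and Cacng7 (2.43). Nat8f5, Csrp3 and Foxa2 were below background on all 3 S714G ZT13 adipose arrays and Tm4sf4 on 2 of 3, so their sizes are not exact. The adjusted p ran between 0.00322 for Retnlg and 0.0372 for Slc2a13. In adipose tissue Pax2, Tm4sf4, Nat8f5, F9, Csrp3 and Foxa2 were highest on control ZT1 adipose replicate 2, the array with the highest hepatocyte markers, and the part of those markers was not tested. For Pax2 most of the tissue difference came from a positive difference in liver.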

How the results depend on the processing

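Against 3115 genes called, 7222 were called with only the 6 arrays compared, 6979 with all 24 arrays, 749 with a replicate block, 4 with slide as a fixed block and 0 with slide as a random block (consensus correlation 0.529). Of the 24 genes of largest difference 9 passed with the replicate block, 1 with the fixed and 0 with the random slide block. The count of 11 macrophage genes became 6 under median scaling, 6 with the replicate block and 0 with either slide block, and that of 6 day and evening clock genes 0 with either slide block. The tissue difference gave 396 genes with the fixed slide block, against 218. Leaving out 1 array in turn gave 68 to 2829 genes, 3 to 24 of the largest, 3 to 10 macrophage genes, 1 to 6 clock genes and 51 to 310 genes for the tissue difference. Same-numbered S714G ZT13 and control ZT1 arrays correlated at 0.073, 0.15 and 0.051 in their deviations. Not every pair was over 0.1, so the numbers were not taken as pairs, although each array correlated best with its own number, a hint of pairing from the data and not the design.

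Directions turned for Bhlhe41 (0.067 under median scaling, 0.36 with the fixed slide block). Ciart was below background on all 6 arrays, so its fitted values (0.11 under median scaling, 0.16 under quantile normalization, -0.79 to 0.15 over the fits without 1 array) carry no direction. The mean over all probes gave 0.12 for Col14a1 and 0.80 for Nr1d2. With the fixed slide block the values were -0.19 for Clock, -1.36 for Cry1, -0.0086 for Gtf2h5, -0.19 for Herpud1, -0.060 for Hilpda, -0.24 for Hsp90b1, 0.10 for Ifit2, -1.13 for Mars2, 0.41 for Oasl1 and -0.44 for Slc25a20. The cause of these changes was not tested.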

Other observations

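With slide as a fixed block over all 24 arrays, 4 features passed: Retnlg (-5.20), 6430550D23Rik (-3.08, against -0.41 without the block) and 2 unnamed long intergenic RNA intervals, which lay at 6.12 and 4.56 with the block and at -0.24 and -1.62 without it. They were named after their values were seen.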
